A study of Mus musculus with 4 samples.

Results

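Genes that are used to recognise monocytes newly arrived in a tissue, Ly6c2, Ccr2, Plac8, S100a4 and Ms4a6c, were examined in the mouse thoracic aorta by single-cell RNA sequencing. They were chosen by name, as 5 of the 17524 genes listed in each of 4 libraries, and were read in phagocyte-gated cells. A cell passed this gate with at least 10 raw UMIs of Lyz2, Tyrobp and Fcer1g together, under 10 UMIs of Dcn and Lum together and at most 2 UMIs of Myh11. A UMI (unique molecular identifier) marks 1 captured transcript. S100a4 was also read in smooth muscle cells, gated by at least 3 UMIs of Myh11.

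Each library came from the pooled thoracic aortas of 3 mice, freed of surrounding fat, digested with enzymes, sorted for viable cells with the dye DAPI and captured with 10x 3′ v3 chemistry. WT saline was wild type on a normal diet with saline. WT AngII was wild type with angiotensin II (AngII, a hormone that raises blood pressure) infused for 7 days and a high fat diet for 5 weeks. KO saline and KO AngII were the corresponding libraries labelled as whole-body Sting knockout. Sting is an adaptor that links DNA sensing to interferon. Infusion and diet were always given together and cannot be told apart, and "AngII" stands for both below. Sets of 4 values follow the order in which the libraries are introduced here.

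Classical monocytes leave the bone marrow through the chemokine receptor Ccr2, enter inflamed tissue along gradients of the ligands Ccl2, Ccl7, Ccl8 and Ccl12, and turn into macrophages or antigen-presenting cells there. On entry they carry the surface antigen encoded by Ly6c2 and the small cytoplasmic protein encoded by Plac8, both of which decline as the cells mature. S100a4 encodes a calcium-binding protein that acts on the motor protein myosin and is made by many motile cells, including fibroblasts. Ms4a6c encodes a membrane protein with several membrane-spanning segments that is made by monocytes and macrophages. The resident macrophages of the vessel wall are recognised by genes such as Lyve1, Folr2 and Cbr2.

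The members lie on 5 chromosomes in mm10 (GENCODE M21 annotation), all as protein-coding genes: Ly6c2 at chr15:75108158-75111970 (minus strand), Ccr2 at chr9:124101950-124113557 (plus), Plac8 at chr5:100553725-100572245 (minus), S100a4 at chr3:90603771-90606045 (plus) and Ms4a6c at chr19:11469366-11482192 (plus).

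The stretch just upstream of the gene start is shown for the members with such a stretch in the RefSeq promoter table (GRCm38.p6), because this stretch of a gene holds sites of cell type restricted factors. All 5 members matched the table. Each window runs from 250 bases before the start site and stops where the RefSeq gene record begins. The window of Ccr2 lies inside its gene record and is not shown. Capitals mark matches, on either strand, to GAGGAA (the core bound by the myeloid factor PU.1) and TATAAA (the TATA box).

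Ly6c2, chr15:75112067-75112221, minus strand: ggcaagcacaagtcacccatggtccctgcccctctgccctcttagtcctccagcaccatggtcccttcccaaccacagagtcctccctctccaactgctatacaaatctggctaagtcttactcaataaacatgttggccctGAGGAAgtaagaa
Plac8, chr5:100572254-100572455, minus strand: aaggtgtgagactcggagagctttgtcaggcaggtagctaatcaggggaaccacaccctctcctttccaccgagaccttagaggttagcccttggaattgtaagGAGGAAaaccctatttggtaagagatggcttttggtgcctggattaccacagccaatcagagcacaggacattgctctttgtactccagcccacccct
S100a4, chr3:90603520-90603769, plus strand: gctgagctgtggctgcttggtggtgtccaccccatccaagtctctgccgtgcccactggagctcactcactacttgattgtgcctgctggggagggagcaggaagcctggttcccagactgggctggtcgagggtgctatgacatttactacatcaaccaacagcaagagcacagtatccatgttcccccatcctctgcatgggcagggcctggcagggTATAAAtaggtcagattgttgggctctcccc
Ms4a6c, chr19:11469118-11469352, plus strand: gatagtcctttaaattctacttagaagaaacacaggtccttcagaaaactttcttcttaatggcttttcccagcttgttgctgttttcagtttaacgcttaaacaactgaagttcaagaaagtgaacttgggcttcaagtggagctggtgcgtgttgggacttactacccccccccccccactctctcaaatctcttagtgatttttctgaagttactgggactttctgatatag

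GAGGAA occurred at 1 place in the Ly6c2 window and 1 place in the Plac8 window, both on the gene's own strand, against 15.1% and 18.9% of all 32851 promoter windows cut to the same lengths. TATAAA occurred in the S100a4 window, and 12.4% of all windows of that length hold it. TGANTCA (AP-1), the interferon response element and the CArG box of smooth muscle genes had no match in these 4 windows. These letters are a description of the windows and say nothing of binding.

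Counts of near copies limit some members. In the GENCODE M21 transcripts, 17.4% of the 90-base windows in the last 400 bases of Ly6c2 also occur in Ly6c1, and 2.25% of those of Ms4a6c occur in Ms4a6b. The counts of these 2 members are uncertain to that extent, since the treatment of such reads was not given in the sources used here. For S100a4, 46.4% of the windows also occur in Gm42674, a gene that was not analysed here. Its counts are uncertain to that extent for the same reason. Plac8 and Ccr2 shared no window with another gene.

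The libraries held 8495 to 12053 cells and 60064038 to 94698727 UMIs, and 8475 to 12024 cells were kept. Median depth was 5894.5 and 6081 UMIs per cell in WT saline and KO saline, against 9954 and 9300.5 in WT AngII and KO AngII. Transcripts of the targeted gene Tmem173 were present in the libraries labelled KO (1.33 CPM in saline and 6.10 in AngII, against 1.75 and 7.03 in WT). This level checks nothing, because it is unknown whether the counted 3′ end lies in the altered part of the gene. Pairs of libraries shared 92 to 148 cell barcodes, at most 1.74% of the smaller library, and at most 1 of them was phagocyte-gated in both. With 1 library per group there is no replicate and no test. All intervals below are 95% intervals that cover counting error only.

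The phagocyte gate held 251 saline and 631 AngII cells in WT and 64 saline and 486 AngII cells in KO, or 2.72%, 7.45%, 0.532% and 5.72% of kept cells. They carried 1205968, 5254786, 403543 and 3850494 UMIs, with medians of 4480, 7503, 5486 and 7182.5 per cell. The cells were macrophage-rich in each library: C1qa was detected in 90.6% to 99.2% of them and Csf1r in 93.8% to 96.0%. Chil3, a gene of blood classical monocytes, had 0, 12, 0 and 42 UMIs in the 4 libraries, so that in KO AngII it exceeded Ly6c2, and 15 classical monocyte genes, none of them a member, summed to 1012, 2968, 1318 and 2791 CPM. Of 9 neutrophil genes 6 were listed, and they summed to 27.4, 21.5, 71.9 and 22.9 CPM. Of 10 T and NK cell genes 5 were listed; they had 0, 120, 5 and 11 UMIs (0, 22.8, 12.4 and 2.86 CPM), with Cd3d and Cd3g at 0 in each library. The 3 listed genes of B and plasma cells had 11, 30, 0 and 12 UMIs, with Cd79a at 0. Of 6 plasmacytoid dendritic cell genes 4 were listed, and they summed to 308, 496, 263 and 205 CPM. They also had 402 CPM in WT AngII fibroblasts. The 9 dendritic cell genes summed to 247, 104, 436 and 139 CPM. The T and NK sum and the plasmacytoid sum were thus highest in WT AngII, as were Ly6c2 and Plac8. The part of such cells in the levels of Ly6c2 and Plac8 was not tested. The label of recruited monocytes was read as the name of the gene set and not as the identity of the gated cells. Smooth muscle transcripts in the gate were highest in KO saline, where 10 smooth muscle genes summed to 3338 CPM against 1388 in WT saline, 783 in WT AngII and 1278 in KO AngII. Results under stricter limits on these transcripts are given where they differ. KO saline rests on 64 cells, and comparisons with it are the least precise.

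Levels are given as CPM, counts per 1000000 UMIs summed over the gated cells. Each transcript gives 1 UMI at its 3′ end whatever its length, so levels of different genes are on a per-transcript scale. In wild type, 3 of the 5 members were at least 2-fold higher in AngII than in saline phagocytes (Ly6c2, Ccr2 and Plac8), and 1 was at least 2-fold lower (Ms4a6c). Among all 8896 genes with at least 30 UMIs over both libraries, 8.27% were that much higher and 6.8% that much lower. The median log2 ratio was 2.42 for the members, with Ly6c2 and Plac8 at their bounds, and -0.06 for all genes. In KO, 2 of the 4 members that could be compared were at least 2-fold higher with AngII (Ccr2 and Plac8) and none was lower, against 7.22% and 8.04% of 7851 genes, with medians of 1.06 and -0.03. Between the AngII libraries, 2 members were at least 2-fold lower in KO than in WT (Ly6c2 and Plac8) and none was that much higher, against 2.97% and 1.34% of 9539 genes, with medians of -0.92 and 0.02. Between the saline libraries 2 members had enough UMIs, and of these Ms4a6c was at least 2-fold lower in KO, against 5.17% of 5279 genes that were lower and 4.24% that were higher. These comparisons share libraries with each other, since each library enters 2 of them.

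**Figure D1:**
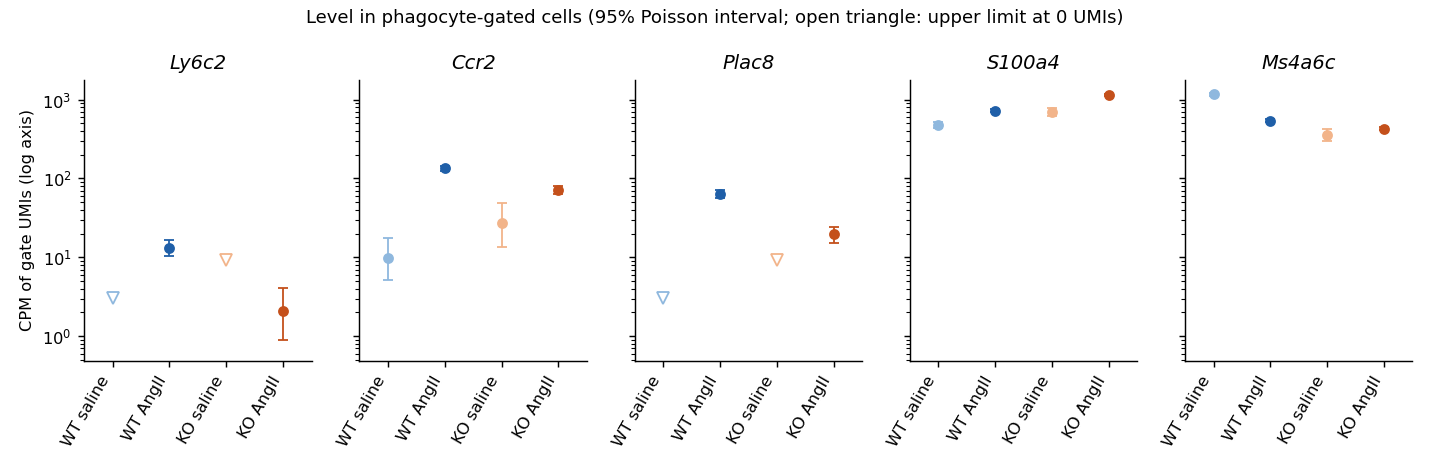
Level of each member in phagocyte-gated cells of the 4 libraries, in counts per 1000000 UMIs of the gate on a log axis. Points are 1 library each with 95% Poisson intervals, and open triangles give the upper limit where no UMI was counted. Ly6c2, Ccr2 and Plac8 were highest in WT AngII, S100a4 in KO AngII and Ms4a6c in WT saline.

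Ccr2, the chemokine receptor through which monocytes are drawn out of marrow and into tissue, was scarce in saline phagocytes and common with AngII. WT phagocytes had 12 UMIs in saline (9.95 CPM, interval 5.14 to 17.4) and 712 with AngII (135 CPM, 126 to 146), and KO phagocytes had 11 in saline (27.3 CPM, 13.6 to 48.8) and 275 with AngII (71.4 CPM, 63.2 to 80.4). WT AngII stood highest, KO AngII next, and the intervals of the saline libraries overlapped. The level was 13.6-fold higher with AngII in WT (log2 ratio 3.77, 2.95 to 4.73) and 2.62-fold higher in KO (1.39, 0.53 to 2.41). In WT saline, 1 cell held 6 of the 12 UMIs. Without the cell richest in Ccr2 of each library, a choice made after seeing the data, the ratio in WT was 26.5-fold. With AngII the level was 1.90-fold lower in KO than in WT (log2 ratio -0.92, -1.13 to -0.72), under the 2-fold mark. The saline libraries had nearly the same number of Ccr2 UMIs from cells of very unequal number, and their log2 ratio of 1.45 has an interval of 0.13 to 2.76.

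Because the AngII cells were deeper, every gated cell was thinned to 2000 UMIs to compare shares of cells with a UMI; 2 WT saline cells were too shallow and were left out. At equal depth Ccr2 was detected in 3 of 249 WT saline cells (1.20%, 0.249% to 3.48%), 116 of 631 WT AngII cells (18.4%, 15.4% to 21.6%), 3 of 64 KO saline cells (4.69%, 0.977% to 13.1%) and 54 of 486 KO AngII cells (11.1%, 8.46% to 14.2%). Without thinning the shares were 1.99%, 34.5%, 7.81% and 21.4%. Smooth muscle cells, which should lack the receptor, showed Ccr2 in 0%, 0.238%, 0.00971% and 0.0353% of cells at the same depth. The phagocyte shares in the AngII libraries lay far above this background. Fibroblast-gated cells (10 or more UMIs of Dcn and Lum, at most 2 of Myh11 and under 10 of the phagocyte genes) had 0, 4, 0 and 1 Ccr2 UMIs in all. Ccr2 was thus highest in phagocytes in each of the 4 libraries.

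**Figure D2:**
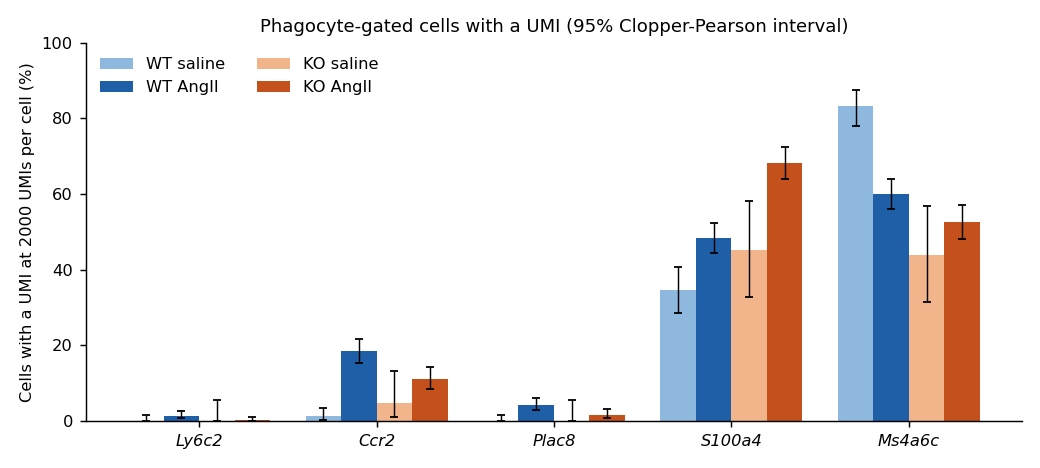
Share of phagocyte-gated cells with at least 1 UMI of each member after thinning each cell to 2000 UMIs. Bars are 1 library each, with 95% Clopper-Pearson intervals; Ccr2 was found in 18.4% of WT AngII and 11.1% of KO AngII cells, and S100a4 and Ms4a6c in 34.5% or more of the cells of every library.

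Gated cells with and without Ccr2 differed in other genes. In WT AngII, cells with a Ccr2 UMI at equal depth carried 52.3 UMIs of 6 MHC class II genes per cell, and cells without carried 17.2. In KO AngII the values were 53.0 and 8.11. MHC class II genes encode the molecules that present antigen to T cells. Resident macrophage genes went the other way, with 5.87 against 13.8 UMIs per cell in WT AngII and 7.69 against 15.1 in KO AngII. Lyve1, the hyaluronan receptor of resident vessel macrophages, was found in 6.90% of Ccr2-positive and 28.3% of Ccr2-negative WT AngII cells. Timd4, a receptor for dying cells on long-lived macrophages, was found in 0% and 7.57%. Median depth before thinning was similar, at 7804.5 and 7459 UMIs in WT AngII and 7281.5 and 7167.5 in KO AngII. Smooth muscle genes, among them Myh11, which the gate limits, were also alike in the WT AngII cells with and without Ccr2 (1.66 and 1.65 UMIs per cell).

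The genes most like Ccr2 across gated cells were Cd74 (mean r 0.48 over the 2 AngII libraries), H2-Aa (0.44) and H2-Eb1 (0.44), among 5411 genes, which are the invariant chain and 2 chains of MHC class II. The correlation is across 631 and 486 cells, which share a library and differ in depth, and is a description only. The gene with the most negative value was Pmp22 (-0.47).

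The 4 ligands of Ccr2 were read in the same gates. Ccl8 was mainly a phagocyte transcript and went from 297 CPM in WT saline to 3239 in WT AngII and from 535 to 2386 in the KO libraries (log2 ratios 3.45 and 2.16). Phagocytes also held Ccl2, at 709, 790, 1105 and 1013 CPM in the 4 libraries, and Ccl7, at 746, 1118, 855 and 1516 CPM. In fibroblasts, Ccl2 went from 70.2 to 633 CPM in WT and from 195 to 1116 in KO, and Ccl7 from 90.5 to 643 and from 140 to 1571. These fibroblast levels exceeded those of phagocytes in KO AngII alone. Single cells weighed on the saline levels: 1 WT saline fibroblast held 170 of 300 Ccl2 UMIs (56.7%), and 1 KO saline fibroblast held 261 of 591 (44.2%). Without the richest cell of each library, a choice made after seeing the data, Ccl2 in saline fibroblasts was at 30.5 CPM in WT and 110 in KO, and the log2 ratios with AngII moved from 3.17 to 4.33 and from 2.52 to 3.31. Those of Ccl7 moved from 2.83 to 3.45 in WT and from 3.49 to 3.85 in KO. Ccl12 in phagocytes had 597 CPM in saline and 701 with AngII in WT (log2 ratio 0.23), and 1137 and 305 in KO (-1.90). In KO saline 1 cell held 262 of the 459 Ccl12 UMIs (57.1%), and without the richest cells the KO ratio was -0.83, under the 2-fold mark. Within the gate, the 4 ligands were fewer in cells with Ccr2, at 4.41 against 13.7 UMIs per cell in WT AngII and 5.07 against 11.5 in KO AngII. Cells with the receptor thus held fewer transcripts of its ligands.

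Of 15 genes for recruitment and egress, Ccr2 included, 13 had enough UMIs in WT, where 4 were at least 2-fold higher with AngII and none lower, against 8.27% and 6.8% of all genes (median log2 ratio 0.17 against -0.06). Among them were Ccr2, Csf2rb, the shared beta chain of cytokine receptors (1.11, 0.63 to 1.63) and Selplg, the ligand for selectins (1.09, 0.80 to 1.40). In KO, 3 of 13 were at least 2-fold higher and none lower, against 7.22% and 8.04%, with Cxcr4, the receptor that holds cells in marrow, at 1.41 (0.75 to 2.16) and Csf2rb at 1.29 (0.39 to 2.37) beside Ccr2 (median -0.07 against -0.03). The receptor of patrolling monocytes, Cx3cr1, had log2 ratios of 0.61 in WT and -0.28 in KO.

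Ly6c2, the gene of the surface antigen that defines classical monocytes in the mouse, was rare everywhere. WT phagocytes had 0 UMIs in saline and 70 with AngII (13.3 CPM, 10.4 to 16.8), and KO phagocytes 0 in saline and 8 with AngII (2.08 CPM, 0.897 to 4.09). The UMIs came from 21 of 631 cells in WT AngII and 3 of 486 in KO AngII. With AngII in WT the level was at least 5.35-fold higher, taking 3 UMIs per library as the floor for a count of 0. No fold is given for KO, where the AngII level lay under the floor of the saline library, 7.43 CPM. Between the AngII libraries it was 6.41-fold lower in KO (log2 ratio -2.68, -3.95 to -1.62).

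Much of the Ly6c2 signal lay in few cells. In WT AngII 1 cell held 30 of the 70 UMIs (42.9%), and in KO AngII 1 cell held 5 of the 8. Without them, WT AngII was at least 3.06-fold above WT saline and KO AngII was 9.77-fold below WT AngII, on 3 UMIs. At 2000 UMIs per cell, Ly6c2 was found in 1.43% of WT AngII and 0.206% of KO AngII cells, and in none of the saline cells. Without thinning it was found in 0 of 251 WT saline and 0 of 64 KO saline cells, which, at 3 cells, allows shares of cells with a UMI of up to 1.20% and 4.69% and does not limit the cells that express the gene. In smooth muscle cells the shares were between 0% and 0.0353% at 2000 UMIs, and 0.0133%, 0.0679%, 0% and 0.0707% without thinning. The WT AngII cell richest in Ly6c2 had 23 UMIs of Plac8 and no UMI of C1qa, C1qb or C1qc, the subunits of a complement protein made by tissue macrophages. The richest cell in KO AngII likewise had 4 UMIs of Plac8 and no C1q UMI, and it was described because of its Ly6c2 count alone. None of 5411 genes, each with a UMI in at least 10% of gated cells of both AngII libraries, reached a mean correlation of 0.2 with Ly6c2. Plac8, in 9.51% and 4.94% of these cells, was too rare to be among them. At own depth in WT AngII, Plac8 was found in 11 of 21 cells with Ly6c2 (52.4%, 29.8% to 74.3%). It was found in 49 of 610 cells without (8.03%, 6.00% to 10.5%). At equal depth the numbers were 3 of 9 and 24 of 622.

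The paralog Ly6c1, an endothelial antigen of the same locus, had 27, 61, 3 and 44 UMIs in phagocytes of the 4 libraries, and did not show the pattern of Ly6c2 (log2 ratio -0.95 in WT and 0.62, -1.02 to 2.95, in KO). Ly6a, another antigen of that family, was higher with AngII in WT (2.75, 2.26 to 3.29) and lower in KO than in WT under AngII (-2.20, -2.45 to -1.96). Ly6e was lower in KO than in WT under AngII by a log2 ratio of -1.12 and had 0.16 with AngII in WT.

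Plac8, the cysteine-rich cytoplasmic protein of early monocytes, was not detected in saline phagocytes and was present with AngII. WT phagocytes had 0 UMIs in saline and 332 with AngII (63.2 CPM, 56.6 to 70.4), and KO phagocytes 0 in saline and 75 with AngII (19.5 CPM, 15.3 to 24.4). In WT the level with AngII was at least 25.4-fold higher, and in KO at least 2.62-fold, where 3 UMIs weigh more because the KO saline gate held few UMIs. Between the AngII libraries it was 3.24-fold lower in KO (log2 ratio -1.70, -2.08 to -1.33). The richest cell held 24.4% of the UMIs in WT AngII and 26.7% in KO AngII. Without them the bounds were 19.2-fold and 1.92-fold, the latter under the 2-fold mark, and the KO to WT log2 ratio was -1.74. The KO bound was also under 2-fold with at least 20 phagocyte UMIs (log2 0.63), with stricter limits (0.76) and at equal depth (0.014).

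Most Plac8 in the aorta was outside phagocytes. WT fibroblasts had 220 CPM in saline (206 to 235) and 193 with AngII, and KO fibroblasts 39.2 in saline (32.5 to 46.9) and 117 with AngII. Fibroblasts thus exceeded phagocytes in each library, and KO saline was the lowest of them. The log2 ratio of AngII over saline was -0.19 in WT and 1.58 in KO (1.31 to 1.86, against 7.75% of 11764 fibroblast genes at least 2-fold higher). In saline the KO level was 5.62-fold below WT (-2.49, -2.78 to -2.21, against 3.16% of 10099 genes at least 2-fold lower). At equal depth 157 of 981, 295 of 1721, 27 of 627 and 253 of 1903 fibroblasts carried it. The level that fibroblast RNA in the droplets would give in phagocytes was estimated with 2 fibroblast transcripts. Col1a2, a collagen chain, stood in phagocytes at 1.25% of its fibroblast level in WT AngII and 1.69% in KO AngII, and Pi16, a marker of adventitial progenitors, at 1.37% and 2.18%. At these shares Plac8 would reach 2.41 to 2.65 CPM in WT AngII and 1.97 to 2.56 CPM in KO AngII, which is 3.82% to 4.19% and 10.1% to 13.1% of what was measured. In WT saline, where no UMI was counted (upper limit 3.06 CPM), the estimates were 3.93 CPM by Col1a2 and 1.46 by Pi16. The Col1a2 estimate thus lay above that limit. In KO saline they were 1.29 and 0.348 CPM, under the upper limit of 9.14. Gated cells with and without Plac8 in WT AngII had like sums of 8 fibroblast genes, 0.926 and 0.873 UMIs per cell. These genes include Dcn and Lum, whose UMIs the gate limits, so the likeness is partly set by the gate and decides nothing about the source.

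At equal depth Plac8 was found in 27 of 631 WT AngII phagocytes (4.28%, 2.84% to 6.16%) and 8 of 486 KO AngII phagocytes (1.65%, 0.713% to 3.22%), in none of the saline phagocytes, and in 0.253% to 0.628% of smooth muscle cells. Like Ccr2, it went with MHC class II, at 54.7 against 22.3 UMIs per cell in WT AngII and 38.4 against 12.7 in KO AngII, the latter from 8 cells with Plac8. Unlike Ccr2, its cells did not have fewer resident macrophage UMIs in WT AngII (12.3 against 12.4 per cell). Ifitm3, an interferon-induced membrane protein (mean r 0.21), and Slc25a20, the carnitine carrier of mitochondria (0.20), were the 2 genes at or above 0.2. Slc25a20 had 0.04 in WT AngII and 0.37 in KO AngII.

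**Figure D3:**
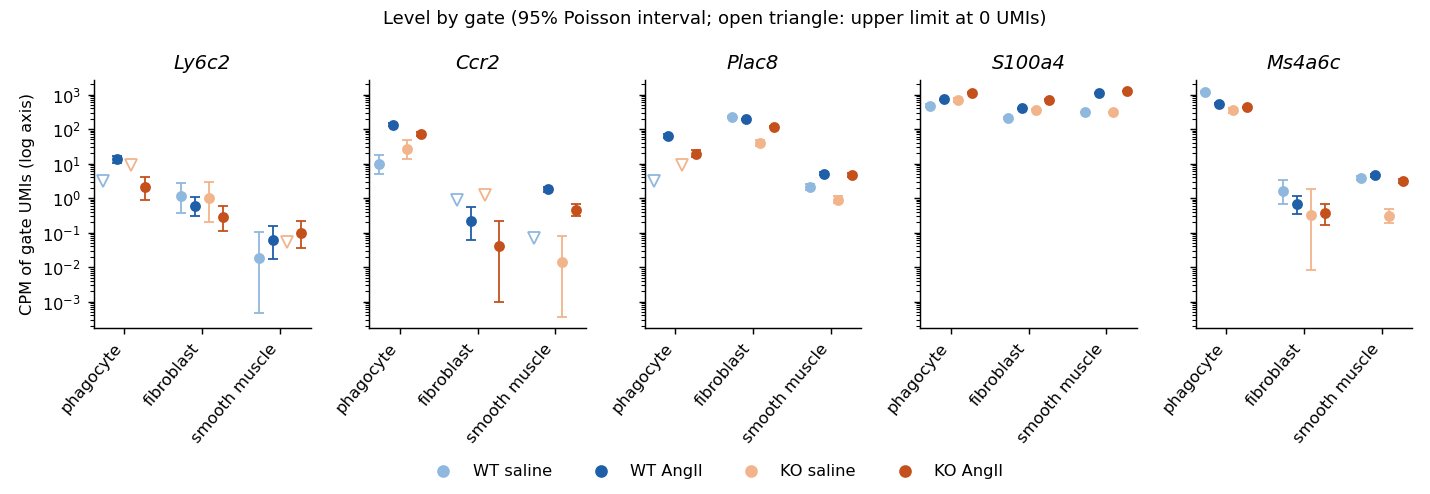
Level of each member by gate and library, in counts per 1000000 UMIs of the gate on a log axis, with 95% Poisson intervals and open triangles at the upper limit for 0 UMIs. Ccr2 and Ms4a6c were highest in phagocytes, Plac8 in fibroblasts, and S100a4 was above 200 CPM in all 3 gates.

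Ly6c2, Ccr2 and Plac8 were then counted together in single cells. At 2000 UMIs per cell, 1 or more of them was found in 1.20% of saline and 22.0% of AngII phagocytes in WT, and in 4.69% and 12.1% in KO. At least 2 were found in 12 of 631 WT AngII cells (1.90%, 0.986% to 3.30%) and 4 of 486 KO AngII cells (0.823%, 0.225% to 2.09%), and in none of the saline cells. At each cell's own depth the numbers were 41 (6.50%) and 10 (2.06%), and all 3 were found in 7 and 2 cells. In smooth muscle cells 2 or more were found in 0 to 1 cells of a library at 2000 UMIs, and in 0, 6, 0 and 3 cells at their own depth. Cells in which all 3 were detected were thus few even where Ccr2 was common, which does not limit the cells that express them. At 2000 UMIs the share with 2 or more was higher in WT AngII than in KO AngII with overlapping intervals. At own depth in WT AngII, Ly6c2 was found in 18.3% (9.52% to 30.4%) of cells with Plac8 and 1.75% (0.843% to 3.20%) of cells without. Ccr2 was found in 50.0% (36.8% to 63.2%) and 32.9% (29.1% to 36.9%) of them, with intervals that just overlapped.

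Cells with any of these 3 genes had fewer complement and more antigen presentation transcripts than cells with none. In WT AngII the median of C1qa, C1qb and C1qc together was 212 UMIs per 10000 in the 380 cells with none of the 3 genes, 134 in the 210 cells with 1 and 140 in the 41 cells with 2 or 3. In KO AngII it was 158 in 367 cells, 107 in 109 cells and 42.2 in 10 cells. Most cells with a monocyte gene therefore still carried macrophage complement transcripts. Cells with under 10 C1q UMIs per 10000 numbered 6 of 380, 21 of 210 and 6 of 41 in WT AngII, and 8 of 367, 17 of 109 and 5 of 10 in KO AngII. The median of 6 MHC class II genes was 3.47, 34.5 and 260 per 10000 in WT AngII and 1.26, 11.05 and 313 in KO AngII. It was 416 in the 7 WT AngII cells with all 3 genes and 206 in the 2 such cells of KO AngII. Depth was uneven across these classes (medians of 7239.5, 8029 and 7391 UMIs in WT AngII), and its part in the number of genes seen was not tested.

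**Figure D4:**
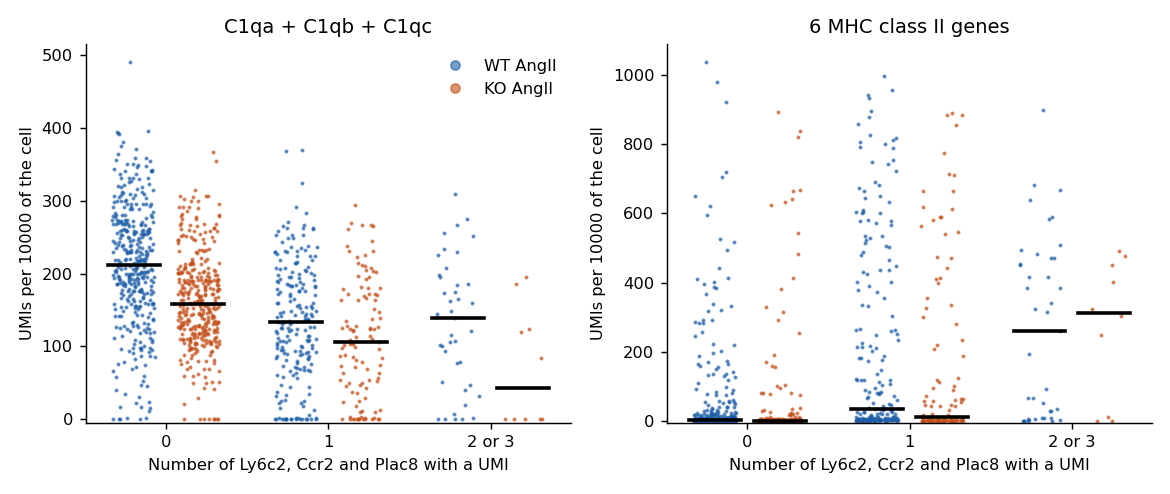
Each point is a phagocyte-gated cell of WT AngII (blue) or KO AngII (orange), placed by how many of Ly6c2, Ccr2 and Plac8 had a UMI at the cell's own depth; black bars are medians. The left panel gives UMIs of C1qa, C1qb and C1qc per 10000 UMIs of the cell (medians of 212, 134 and 140 in WT AngII), and the right panel those of 6 MHC class II genes (3.47, 34.5 and 260).

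S100a4 was abundant in phagocytes of all 4 libraries, with 576 UMIs in saline (478 CPM, 439 to 518) and 3817 with AngII (726 CPM, 704 to 750) in WT, and 280 in saline (694 CPM, 615 to 780) and 4414 with AngII (1146 CPM, 1113 to 1181) in KO. KO AngII was highest and WT saline lowest, and the intervals of WT AngII and KO saline overlapped. The level was 1.52-fold higher with AngII in WT (log2 ratio 0.60, 0.48 to 0.73), 1.65-fold higher in KO (0.72, 0.55 to 0.90) and 1.58-fold higher in KO than in WT under AngII (0.66, 0.60 to 0.72). None of these reached 2-fold. It is the member that was higher, not lower, in KO AngII than in WT AngII. In KO saline 1 cell held 55 of the 280 UMIs, and without the richest cell of each library the KO ratio was 0.96. The KO ratio passed the 2-fold mark with stricter limits on fibroblast and muscle transcripts (1.36), without the deepest cells (1.17) and with every cell weighted equally (1.04).

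At equal depth S100a4 was found in 34.5%, 48.3%, 45.3% and 68.3% of phagocytes in the 4 libraries. Smooth muscle RNA in the gate was measured through Acta2, a contractile actin: at the share at which Acta2 was seen in the gate, smooth muscle S100a4 would give 2.07% to 3.52% of the measured levels. The genes most like it were other small calcium-binding or cytoskeletal genes, S100a6 (mean r 0.75), S100a10 (0.61) and Crip1 (0.56), and Apoe, the lipid carrier of macrophages, had the most negative value (-0.50). Of these, S100a6 had log2 ratios of 0.14 with AngII in WT and 0.33 in KO, and S100a10 of -1.03 and 0.15. S100a4 went with Ccr2 in KO AngII, where it was found in 83.3% (70.7% to 92.1%) of cells with Ccr2 and 66.4% (61.8% to 70.9%) of cells without, and in WT AngII the shares were 56.0% and 46.6%. The intervals overlapped narrowly in KO and widely in WT. At own depth they were apart in both libraries. The shares were then 76.1% (69.9% to 81.6%) and 63.7% (58.8% to 68.3%) in WT AngII. In KO AngII they were 94.2% (87.9% to 97.9%) and 81.9% (77.7% to 85.7%). The part of depth in these own-depth shares was not tested.

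S100a4 was not restricted to phagocytes. WT muscle cells had 16694 UMIs in saline (316 CPM, 311 to 320) and 70259 with AngII (1088 CPM, 1080 to 1096), and KO muscle cells 21730 in saline (309 CPM, 305 to 313) and 75319 with AngII (1258 CPM, 1249 to 1267). The AngII libraries lay far above the saline libraries. The difference was 3.45-fold in WT (log2 ratio 1.79, 1.76 to 1.81) and 4.07-fold in KO (2.03), against 8.06% of 13310 and 7.14% of 13395 genes at least 2-fold higher. The median of all smooth muscle genes was shifted by -0.11 and -0.17 in these comparisons, and scaling by trimmed means gave 1.89 and 2.18. The saline libraries were nearly equal (log2 ratio KO over WT -0.03). In fibroblasts S100a4 had 213, 402, 369 and 718 CPM in the 4 libraries, so it was higher with AngII in all 3 gates (log2 ratios 0.91 and 0.96 in fibroblasts).

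Phagocyte RNA in the droplets of muscle cells was estimated through Lyz2, the lysozyme of phagocytes. Lyz2 is also a gene of the phagocyte gate, so its phagocyte level, and the ratios and shares below, depend on that gate. The ratio of S100a4 to Lyz2 UMIs was 7.52 to 34.1 in smooth muscle cells and 0.0308 to 0.0947 in phagocytes. At the share of Lyz2 seen in smooth muscle cells, phagocyte S100a4 would give 0.164% to 0.478% of the measured level. Ms4a6c, in contrast, had 0.313 to 4.54 CPM in smooth muscle cells, and 69.4% to 85.1% of it was at the level given by that share. The S100a4 ratios with AngII were as large in muscle cells without any phagocyte UMI and with at most 1 UMI of Dcn and Lum (1.80 and 2.01).

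The AngII libraries differed in how S100a4 was spread over muscle cells. At 2000 UMIs per cell, it was found in 36.5% of saline and 76.2% of AngII cells in WT, and in 38.9% and 63.5% in KO. Cells without a UMI made up 23.8% in WT AngII and 36.5% in KO AngII, while cells with 5 or more made up 12.3% and 13.6%. The variance divided by the mean was 2.01 in WT AngII and 3.22 in KO AngII, against 2.03 and 1.61 in saline. KO AngII thus had both more cells without S100a4 and slightly more cells rich in it. The comparison of mean levels between the AngII libraries turned with this: the log2 ratio of KO over WT was 0.21 from summed UMIs and -0.10 at equal depth per cell. In KO AngII the cells with 5 or more S100a4 UMIs were deeper (median 14393 UMIs before thinning) than those without (6810), and in WT AngII the medians were 10627 and 9973.

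**Figure D5:**
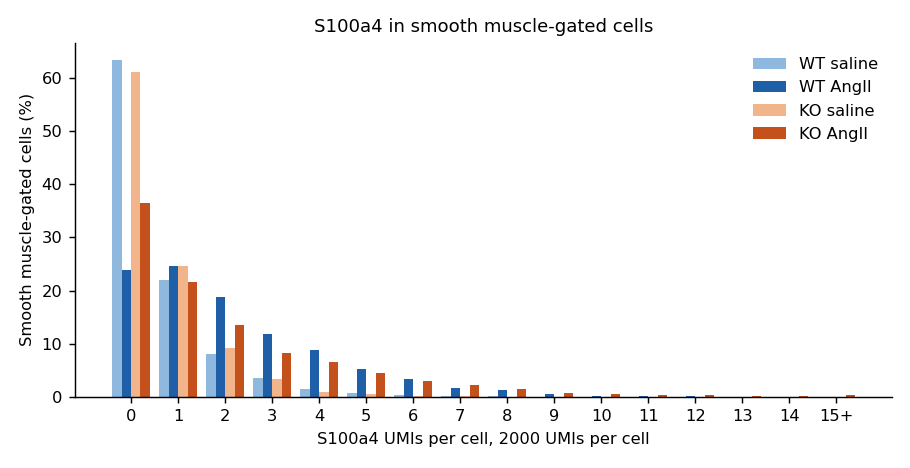
Share of smooth muscle-gated cells by the number of S100a4 UMIs after thinning each cell to 2000 UMIs; 15+ means 15 or more, and bars are 1 library each. Saline cells mostly had none (63.5% in WT and 61.1% in KO), against 23.8% in WT AngII and 36.5% in KO AngII.

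Muscle cells rich in S100a4 carried more transcripts of a list of 10 genes of modulated smooth muscle. The list holds S100a6 and Lgals3, which are among the genes most like S100a4. Of the list's CPM over all muscle cells, S100a6 alone had 2352 of 3167 in WT saline. It had 3552 of 6953 in WT AngII and 3448 of 7341 in KO AngII. The other list genes, such as Spp1, Fn1 and Vcam1, were not summed apart from it. In KO AngII the 10 genes summed to 17.4 UMIs per cell with 5 or more S100a4 UMIs and 10.4 without any. The sums were 15.8 and 11.9 in WT AngII, and 12.8 and 5.32 in WT saline. The 10 contractile genes were fewer in the rich cells of KO AngII (78.6 against 104 UMIs per cell) and alike in WT AngII (84.1 against 82.5). The genes most like S100a4 over muscle cells of the 4 libraries were S100a6 (mean r 0.47), Fxyd5, a regulator of the sodium pump (0.33), and Lgals3, a galectin (0.33), among 7652 genes. For Fxyd5 and Lgals3 the value was largest in KO AngII (0.61 and 0.54), against 0.20 to 0.29 in the other 3 libraries. The gate takes in muscle cells of very different depth, and the part of depth in these values was not tested. The paralogs S100a1 and S100a13 had 192 to 224 and 273 to 287 CPM in the AngII muscle cells and 187 to 199 and 220 to 242 CPM in saline, and S100a6 went from 2352 to 3552 CPM in WT and 2165 to 3448 in KO.

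Ms4a6c differed from the other 4 members, as it was highest in saline wild type phagocytes. WT phagocytes had 1406 UMIs in saline (1166 CPM, 1106 to 1228) and 2835 with AngII (540 CPM, 520 to 560), and KO phagocytes 144 in saline (357 CPM, 301 to 420) and 1639 with AngII (426 CPM, 405 to 447). The log2 ratio of AngII over saline was -1.11 in WT (-1.20 to -1.02) and 0.25 in KO (0.01 to 0.51). The KO libraries lay below the WT libraries, by -1.71 in saline (-1.97 to -1.46) and -0.34 with AngII (-0.43 to -0.25). At equal depth it was found in 83.1% of saline and 60.1% of AngII cells in WT, and in 43.8% and 52.7% in KO. Fibroblasts had 0.330 to 1.64 CPM. It was therefore a phagocyte transcript. Its counted level in WT saline was close to that of S100a4 in KO AngII, which is uncertain because of the shared windows given above.

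Across AngII phagocytes Ms4a6c went with genes of mature macrophages. Its most similar genes were its paralog Ms4a6b (mean r 0.46), Sepp1, a selenium carrier (0.45), and Itm2b, a membrane protein (0.44). Cells with Ms4a6c had more resident macrophage UMIs than cells without, 14.4 against 9.31 per cell in WT AngII and 16.3 against 12.0 in KO AngII. They had fewer class II UMIs (21.6 against 26.8, and 8.85 against 17.8), the opposite of the cells with Ccr2. The share with Ms4a6c was 55.2% and 61.2% in WT AngII cells with and without Ccr2, and 42.6% and 53.9% in KO AngII, with overlapping intervals in each library. For Plac8 the direction was the other way. The share was 70.4% and 59.6% in WT AngII cells with and without it, and 75% and 52.3% in KO AngII, also with overlapping intervals. At own depth in WT AngII, Ms4a6c was found in 21 of 21 cells with Ly6c2 and 89.7% of cells without.

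The paralogs of Ms4a6c differed among themselves. Ms4a6b had log2 ratios of -1.11 in WT and 0.08 in KO, close to Ms4a6c in both, and 2.25% of the read-length windows are shared between them. Ms4a6d had 0.18 and 1.33, Ms4a7, a gene of macrophages, 2.07 and 0.75, and Ms4a4c 3.51 in WT, with 297 UMIs in WT AngII and 24 in KO AngII (log2 ratio -3.18, -3.85 to -2.58). Of the 16 paralogs of all members with enough UMIs in WT, 4 were at least 2-fold higher with AngII and 2 lower (median 0.15), against 8.27% and 6.8% of all genes. Of 15 in KO, 1 was higher and 1 lower (median 0.14), a share near the 7.22% and 8.04% of all genes. Between the AngII libraries 3 of 16 were at least 2-fold lower in KO (Ly6a, Ly6e and Ms4a4c) and none higher, against 2.97% and 1.34%.

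Other genes of classical monocytes, none of them a member, were compared in the same gates. Of 15 such genes, 12 had enough UMIs in WT phagocytes, where 9 were at least 2-fold higher with AngII and 1 lower (median 1.54), against 8.27% and 6.8% of all genes, and 12 in KO, where 4 were higher and 1 lower (median 0.55), against 7.22% and 8.04%. The list was also higher in the gates of other cells. With AngII in WT, 7 of 10 were at least 2-fold higher and none lower in smooth muscle cells (median 1.56, against 8.06% of all genes higher). In fibroblasts 5 of 7 were higher and 1 lower (median 1.55, against 8.14% higher). In KO 8 of 10 were higher and none lower in smooth muscle cells (median 2.76, against 7.14% higher). In KO fibroblasts 4 of 7 were higher and 1 lower (median 1.45, against 7.75% higher). Genes of modulated smooth muscle, a list that shares Fn1 and Lgals3 with the monocyte list, were likewise higher in the phagocyte gate. In WT 7 of 9 were at least 2-fold higher and none lower (median 2.75), against 8.27% and 6.8% of all genes. In KO 5 of 8 were higher and 1 lower (median 1.54), against 7.22% and 8.04%. The higher levels of the classical monocyte genes with AngII were thus not limited to the phagocyte gate. In the muscle gate Lyz2, a gene of the phagocyte gate, also went from 0.271% to 0.716% of its phagocyte level in WT. In KO it went from 0.0729% to 0.523%. Of 8 macrophage genes, 3 were at least 2-fold higher there in WT and 7 in KO, none lower, against 8.06% and 7.14% of all genes. The part of phagocyte RNA in the monocyte list of the muscle gate was not tested. The classical monocyte genes farthest from 0 in WT phagocytes were Thbs1, the matrix protein thrombospondin (4.65, 3.76 to 5.71), and Fn1, fibronectin (2.89, 2.52 to 3.29). In KO they were Clec4e, a receptor for fungal glycolipid (3.01, 1.77 to 4.64), and Lgals3 (1.80, 1.57 to 2.04). Ifitm6 was lower in both (-1.57 and -2.34). Of 10 resident macrophage genes, 8 were at least 2-fold lower with AngII in WT (median -1.59) and 2 in KO (median -0.71), against 6.8% and 8.04% of all genes, and none was higher. The 6 MHC class II genes had 4 higher and none lower in WT (median 1.13), against 8.27% and 6.8% of all genes, and 6 lower in KO (median -1.49), against 8.04%, with summed levels of 6521, 11909, 19406 and 6467 CPM in the 4 libraries. KO saline cells with Ccr2 (5 cells) had a class II median of 744 per 10000. In bulk sums such as these, a change in the number of cells of a kind and a change of RNA within them cannot be told apart.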

How the data were processed

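Counts of UMIs per gene and cell barcode were deposited by the authors as whole numbers with no normalization, made with Cell Ranger and mm10 per the submitters' processing notes (version, annotation and cell filters: not given in the sources used here). Titles gave the groups. The members and the 18 marker lists were chosen with earlier results of these data known.

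Cells were kept with 500 or more genes and a mitochondrial share of no more than 20%, then gated as described. No doublet caller was run, and an alternative left out the deepest cells. Intervals (95%) were exact Poisson for CPM, Clopper-Pearson for shares and exact conditional for ratios. Against 0 UMIs, a ratio was computed with 3 UMIs in their place and is a bound, with no fold where both libraries lay at or below that. Genes with 30 or more UMIs over both libraries were called at 2-fold. Named besides the members and paralogs were list genes with intervals farthest from 0, up to 2 each way, and the 3 genes with the highest mean correlation of log values, if at least 0.2. Correlations took in genes with a UMI in at least 10% of phagocyte-gated cells of both AngII libraries. For muscle cells the limit was 5% in each library. Lyve1, Timd4, Pmp22, Apoe, Cx3cr1, Selplg and Csf2rb were chosen after their values were seen. Total UMIs of the phagocyte gate, 403543 to 5254786, set the precision. Alternatives varied gates, thinning depth, cells summed, weights and scaling (factors only, from edgeR 4.0.16 and DESeq2 1.42.0). Python 3.11.15, numpy 2.4.6 and scipy 1.17.1 were used, and ratios, intervals and thinning were tested on simulated data. Some genes of the lists are counted in them but are not reported here by name.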

Additional observations from a re-analysis of the deposited data

Results flagged for a closer look

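Ms4a6c went opposite ways with AngII in the 2 genotypes: its log2 ratio in phagocyte-gated cells was -1.11 in WT and 0.25 in KO. Each value compares 1 library with 1 library, and the difference between them was not tested. Over the alternatives tried, the ratio ran from -1.13 to -1.03 in WT and from 0.20 to 0.48 in KO. The KO value rests on 144 UMIs from 64 KO saline cells.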

How the results depend on the processing

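No result changed direction where the main value was at least 2-fold. Of 170 recomputed ratios in phagocytes, 148 stayed within the counting interval of the main value. Some of these could not differ, because the alternative kept the same cells. A minimum of 5 phagocyte UMIs kept the same 251 and 631 WT cells. Taking all deposited cells kept the same 251, 631 and 64 cells, with 488 in KO AngII. In WT with AngII against saline, thinning gave bounds of 1.88 for Ly6c2 and 3.47 for Plac8, stricter limits 4.25 for Plac8, and leaving out the richest cell (chosen after seeing the data) 1.61 for Ly6c2, 4.73 for Ccr2 and 4.27 for Plac8. In KO the bound of Plac8 was 0.63 with at least 20 phagocyte UMIs, 0.76 with stricter limits, 0.014 when thinned and 0.94 without the richest cell, since the floor of KO saline rises as the gate shrinks. KO over WT under AngII was -2.31 for Plac8 with at least 20 UMIs, and when thinned 0.73 for S100a4 and -0.44 for Ms4a6c. S100a4 in KO was 1.36 (stricter limits), 1.17 (without the deepest cells), 0.96 (thinned, and 0.96 without the richest cell) and 1.04 (equal weights). Between the saline libraries S100a4 was 0.044, 0.16, 0.26 (thinned) and 0.16 (equal weights) in the same order. The cause was not tested.

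The share with 2 or more of Ly6c2, Ccr2 and Plac8 was 4.03% in WT AngII at 4000 UMIs and 6.50% without thinning, and 0.206% in KO AngII at 1000 UMIs, as deeper cells show more genes. For S100a4 in muscle cells, the WT ratio was 1.82 with at least 10 Myh11 UMIs, 1.89 with both trimmed-mean and median-of-ratios scaling and 1.72 when thinned. The KO ratio was 2.18 and 2.19 with these scalings and 1.66 when thinned. KO over WT under AngII was 0.11 (Myh11), 0.17 (fewer fibroblast and no phagocyte UMIs), 0.26 and 0.27 (scalings) and -0.10 (thinned), and in saline -0.091 (Myh11).

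With at least 100 UMIs, the genes at least 2-fold higher and lower fell from 736 and 605 to 355 and 241 in WT, from 567 and 631 to 254 and 169 in KO, from 128 and 283 to 41 and 127 between the AngII libraries, and from 224 and 273 to 48 and 47 between the saline libraries. With at least 1 UMI the counts more than 1.5 times apart were 1324 (lower, WT), 1677 (lower, KO), 507 and 753 (AngII libraries) and 980 and 928 (saline libraries). No paired analysis was possible because each group is 1 library. Depth limits Ly6c2 and Plac8 most: 3 UMIs correspond to 7.43 CPM in the KO saline gate and 0.571 CPM in WT AngII.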

Other observations

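Ccr2 UMIs were counted in smooth muscle-gated cells of the AngII libraries, 115 in 49 WT cells and 27 in 21 KO cells, against 0 and 1 in saline. At the share given by Lyz2, itself a gene of the phagocyte gate, phagocyte RNA would give 54.5% and 82.8% of these levels.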
